A study of Homo sapiens with 12 samples.

Results

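The 49 genes described here are the secreted and membrane-bound matrix metalloproteinases (MMPs), the ADAMTS proteases, the ADAMTS-like proteins and the tissue inhibitors of metalloproteinases (TIMPs). They are every gene whose platform symbol is MMP, TIMP, ADAMTS or ADAMTSL followed by a number, without antisense genes. This rule uses names only, but it was chosen with earlier results of these data known. Of 19775 genes tested, 22 were MMPs, 18 ADAMTS, 5 ADAMTSL and 4 TIMPs. Each gene was read from 1 probe set, a group of short probes summarised to a single value, namely the one of its probe sets with the highest mean over the 12 arrays. The cells were MCF-10A, an established line of non-tumorigenic human mammary epithelium, and RNA was measured 48 h after retroviral infection. In 3 samples each, they carried NICD, the intracellular domain of Notch1; Notch1 L1601P+ΔP, called L1601P+ΔP here; wild-type full-length Notch1; or the vector control. As background, L1601P is a change in the part of the receptor that keeps its subunits joined, and ΔP is the loss of the PEST region at the C-terminus, which shortens the life of the intracellular domain. The descriptions of the NICD samples add gfp to the name, and the sources used here do not say what it stands for. All 4 groups share the virus infection, and no uninfected cells were analysed here. The labels call the 3 samples of a group biological replicates and say nothing more of how separately they were grown. The p-values cover only the spread of arrays within their groups, pooled over the 4 groups and moderated across genes.

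MMPs and ADAMTS proteases are zinc enzymes that cut proteins of the extracellular matrix and of the cell surface. MMPs are made as inactive precursors, cut into the active form and held in check by the TIMPs, which plug the active site. In the mammary gland this balance is known for its part in duct branching and in the rebuilding of the gland after lactation. Notch receptors, once cut by ADAM10 and gamma-secretase, release the intracellular domain, which joins the DNA-binding protein RBPJ in the nucleus.

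The deposited values are log2 signals normalised by RMA, and array medians lay between 5.64 and 5.697. One NOTCH1 probe set was higher in all 3 Notch1 groups than in vector, by 2.25 with NICD, 2.20 with L1601P+ΔP and 2.62 with full-length Notch1 on the log2 scale (limma, highest adjusted p = 1.37e-08). The other NOTCH1 probe set differed by 0.28 with NICD (limma, adjusted p = 0.00881) and by at most 0.08 in the other groups, which were not called. Of 8 epithelial markers 6 were tested, and their mean log2 signal per array was 11.996 to 12.082 in NICD cells, against 12.154 to 12.206 in vector cells. With NICD 5 of the 6 were called, KRT5 (0.58) and KRT14 (0.57) higher and EPCAM (-0.74), KRT18 (-0.24) and ITGA6 (-1.07) lower, and CDH1 differed by 0.02. That is 83.3%, beside 27.6% of all genes called with NICD. With L1601P+ΔP 4 were called, KRT5 and KRT14 higher and EPCAM and ITGA6 lower, between -0.31 and 0.58. That is 66.7%, beside 5.12% of all genes called with L1601P+ΔP. The 10 fibroblast markers averaged 6.44 to 6.52 per array in NICD cells and 5.92 to 5.996 in vector cells, with 2 called higher (POSTN by 4.38 and DCN by 0.36). Of 6 endothelial markers 1 was called higher (KDR by 1.048), with array means of 5.38 to 5.46 with NICD and 5.14 to 5.23 with vector. Of the 6 blood cell markers 4 were tested and 1 was called higher (CD14 by 2.59), with array means of 6.64 to 6.70 with NICD and 5.95 to 6.01 with vector. The shares called with NICD were 20% of the fibroblast, 16.7% of the endothelial and 25% of the blood cell markers tested. In L1601P+ΔP cells POSTN was higher by 2.07 and CD14 by 0.86, 10% of the fibroblast and 25% of the blood cell markers tested. The part of these shifts in the results below was not tested. In cultures measured in bulk, fewer cells of a type and less RNA per cell cannot be told apart.

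NICD cells differed from vector cells in 11 of the 49 genes, among them proteases, an ADAMTS-like protein and inhibitors. TIMP1, MMP7, MMP12, ADAMTS1, ADAMTS9, ADAMTS15 and ADAMTSL4 were higher, and TIMP2, TIMP3, MMP20 and MMP28 were lower. These 11 genes are 22.4% of the 49, beside 27.6% of all genes called in this comparison (9.54% higher and 18.1% lower), a share near the background. Over all genes 34.6% of the called were higher, and 51.6% under cyclic loess scaling, which turned the direction of none of the 11. Called here means a limma p that stayed under 0.05 after Benjamini-Hochberg adjustment for the whole array. The median log2 fold change was 0.04 over the 49 genes and -0.02 over all genes. The arrays of the 2 groups did not overlap for 16 of the 49 genes, 32.7%, where 39.1% of all genes did not overlap. At least 2-fold changes were seen in 5 of the called genes, with 3 higher and 2 lower. Over all 19775 genes, 354 were called and at least 2-fold higher, and 204 were called and at least 2-fold lower. Of the 49 genes, 22 had a mean log2 signal under 5 over the 12 arrays, near the lower end of the scale. Only 3 of those were called in any comparison (MMP12, MMP16 and MMP20), and changes at such signals are compressed. ADAMTS1 and ADAMTS15 had higher means over the 12 arrays (5.60 and 5.90) because of NICD, but their vector means were under 5 (4.72 and 4.89), so their folds are compressed at the vector end too.

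**Figure D1:**
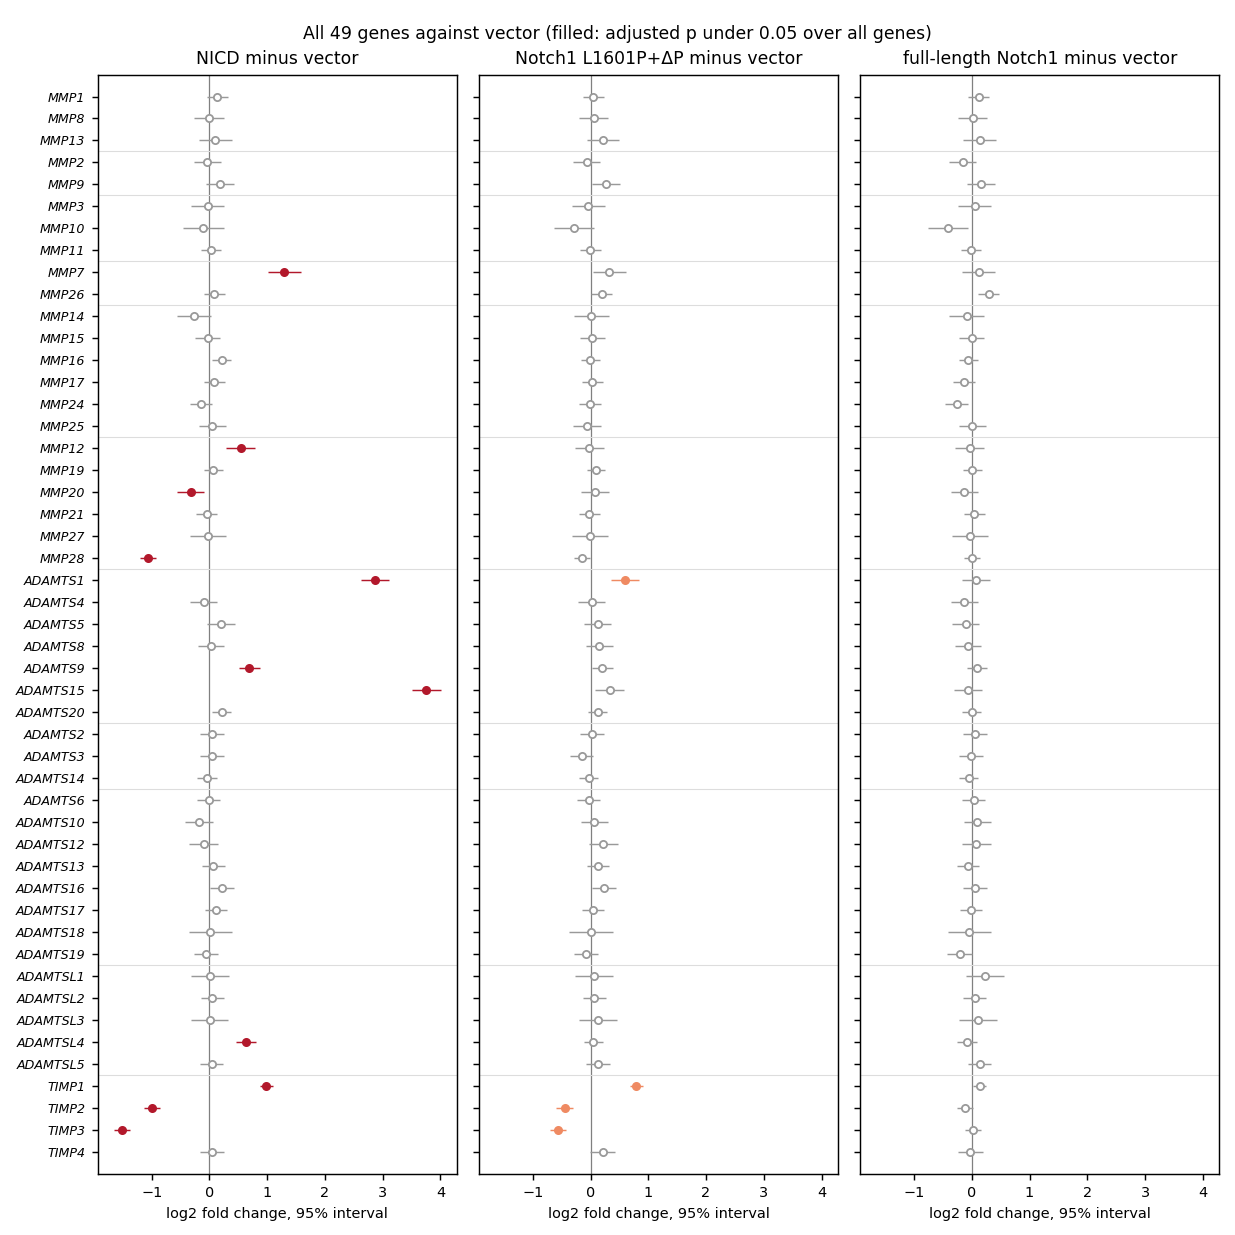
The log2 fold change of each of the 49 genes against vector is plotted with its 95% interval, in separate panels for NICD, L1601P+ΔP and full-length Notch1, and filled points are genes with an adjusted p under 0.05. The panels hold 11, 4 and 0 filled points, and ADAMTS15 with NICD lies furthest to the right at 3.76.

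Of the 4 TIMPs, NICD cells had more TIMP1 and less TIMP2 and TIMP3. In L1601P+ΔP cells TIMP1 was higher by 0.79 on the log2 scale and TIMP2 and TIMP3 differed by -0.45 and -0.57. Against vector, 3 of the 4 (75%) were called in each, beside 27.6% of all genes with NICD and 5.12% with L1601P+ΔP. TIMP1, a secreted inhibitor of most MMPs, had log2 signals of 14.73, 14.70 and 14.65 in NICD cells. In L1601P+ΔP cells they were 14.52, 14.49 and 14.49, in full-length Notch1 cells 13.86, 13.85 and 13.82, and in vector cells 13.70, 13.65 and 13.77. The groups thus stood in the order NICD, L1601P+ΔP, full-length Notch1 and vector, and no arrays of different groups overlapped. TIMP1 was 1.98-fold higher with NICD than with vector (log2 fold change 0.99 ± 0.05, SE; limma, adjusted p = 9.33e-09). With L1601P+ΔP it was 1.73-fold higher (0.79 ± 0.05; limma, adjusted p = 9.73e-07), while full-length Notch1 differed by 0.14 ± 0.05 and was not called (limma, adjusted p = 0.856). NICD exceeded L1601P+ΔP by 0.19 ± 0.05 (limma, adjusted p = 0.0148), and without NICD replicate 1 that difference was 0.18 with an adjusted p of 0.0579. The highest value on any array was 15.01, so TIMP1 lay near the upper end of the scale, where array signals can flatten. TIMP1 overlaps SYN1, a synapsin gene, in RefSeq. SYN1, looked at after its values were seen, averaged 6.38 in NICD cells and 5.77 in vector cells (0.62; limma, adjusted p = 0.000166).

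TIMP3, which binds to the matrix and inhibits ADAM and ADAMTS proteases as well as MMPs, had log2 signals of 8.41, 8.42 and 8.28 in NICD cells. It had 9.29, 9.27 and 9.41 in L1601P+ΔP cells, 9.82, 9.92 and 9.97 in full-length Notch1 cells, and 9.85, 9.93 and 9.88 in vector cells. NICD arrays were lowest, L1601P+ΔP arrays stood between, and full-length Notch1 and vector arrays overlapped. TIMP3 fell 2.86-fold with NICD (-1.52 ± 0.06; limma, adjusted p = 1.38e-09) and 1.48-fold with L1601P+ΔP (-0.57 ± 0.06; limma, adjusted p = 0.000143). The difference between NICD and L1601P+ΔP was -0.95 (limma, adjusted p = 2.15e-07). All 4 TIMP3 probe sets were called lower, by between -1.52 and -0.9997 with NICD and between -0.57 and -0.36 with L1601P+ΔP. The gene lies inside SYN3, another synapsin gene, whose own difference was -0.03 with NICD (limma, adjusted p = 0.918).

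TIMP2 both inhibits MMPs and, bound to MMP14, takes part in the activation of the MMP2 precursor. Its log2 signals were 9.22, 9.29 and 9.21 in NICD cells, 9.80, 9.86 and 9.69 in L1601P+ΔP cells, 10.12, 10.03 and 10.19 in full-length Notch1 cells, and 10.25, 10.31 and 10.15 in vector cells. The first 2 of these groups stood apart from each other and from vector, and the full-length Notch1 arrays overlapped vector. TIMP2 fell 1.99-fold with NICD (-0.996 ± 0.06; limma, adjusted p = 1.03e-07) and by 0.45 ± 0.06 on the log2 scale with L1601P+ΔP (limma, adjusted p = 0.00112). All 3 TIMP2 probe sets were called lower with NICD, between -0.996 and -0.73, and 2 of them with L1601P+ΔP. TIMP4, the remaining inhibitor, averaged 4.43 with NICD, 4.60 with L1601P+ΔP, 4.36 with full-length Notch1 and 4.39 with vector. It was called in no comparison. TIMP4 overlaps SYN2, another synapsin gene, which averaged 9.60 in NICD cells and 4.98 in vector cells (4.62; limma, adjusted p = 4.06e-10), and was looked at after its values were seen.

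**Figure D2:**
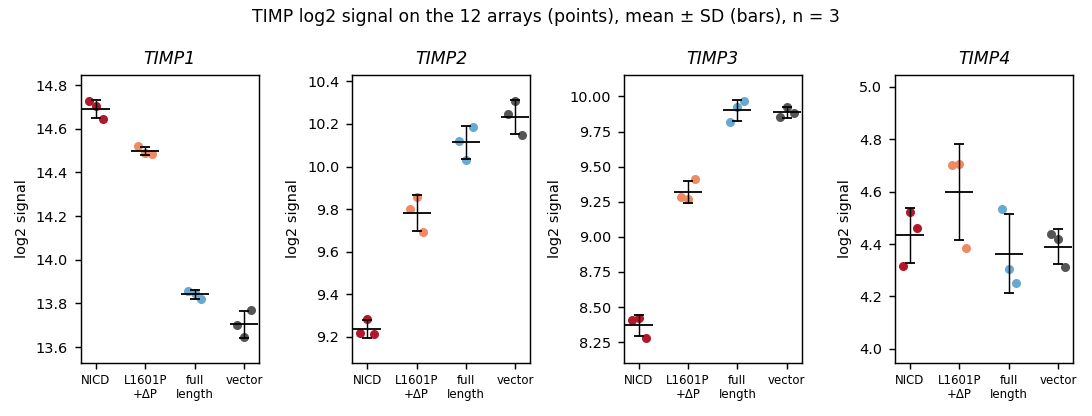
Log2 signals of TIMP1, TIMP2, TIMP3 and TIMP4 are plotted for each of the 12 arrays by group, with points for arrays and bars for the mean ± SD (n = 3). TIMP1 is highest and TIMP2 and TIMP3 are lowest in NICD cells, L1601P+ΔP cells stand between NICD and vector for all 3, and TIMP4 averages between 4.36 and 4.60.

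The sequences upstream of TIMP1 and TIMP3 are shown because these inhibitors changed in opposite directions. The 250 bases before the RefSeq gene start (GRCh38.p14) lie at chrX:47582186-47582435 on the plus strand for TIMP1 and at chr22:32801455-32801704 on the plus strand for TIMP3, written 5′ to 3′ with capitals for GC boxes (GGGCGG on either strand).
TIMP1: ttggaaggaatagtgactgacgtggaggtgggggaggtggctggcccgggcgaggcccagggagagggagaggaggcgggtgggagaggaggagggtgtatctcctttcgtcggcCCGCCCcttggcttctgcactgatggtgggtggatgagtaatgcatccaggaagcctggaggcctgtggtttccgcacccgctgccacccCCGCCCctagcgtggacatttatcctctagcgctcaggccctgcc
TIMP3: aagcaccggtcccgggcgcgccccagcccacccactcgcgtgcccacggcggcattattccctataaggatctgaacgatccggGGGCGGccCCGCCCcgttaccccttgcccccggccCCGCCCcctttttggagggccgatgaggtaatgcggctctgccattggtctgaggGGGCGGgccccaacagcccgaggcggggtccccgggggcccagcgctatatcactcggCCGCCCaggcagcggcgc
TIMP1 had 2 GC boxes and TIMP3 had 5. A GC box was found in 21 of the 30 members with a RefSeq promoter entry, against 42.6% of 35116 windows of this length over all genes. Neither window held TGGGAA, the core letters read by RBPJ, on either strand, which says only that these letters are not in these 250 bases. TGGGAA was found in 20.8% of all windows and in 3 of the 30 members (ADAMTSL2, MMP15 and MMP27). A match is a description and not a site.

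Of the 7 ADAMTS proteases known as proteoglycanases, which cut aggrecan and versican, 3 were higher in NICD cells and none lower, with a median log2 fold change of 0.21. That is 42.9% of 7 genes, beside 27.6% of all genes called (9.54% higher and 18.1% lower). ADAMTS15 had log2 signals of 8.67, 8.74 and 8.54 in NICD cells. It had 5.28, 5.23 and 5.15 in L1601P+ΔP cells, 5.05, 4.57 and 4.85 in full-length Notch1 cells, and 5.01, 4.97 and 4.70 in vector cells. Its NICD arrays stood far above all others, and the L1601P+ΔP arrays lay just above vector without overlap. On the deposited scale, ADAMTS15 was 13.5-fold higher with NICD than with vector (3.76 ± 0.11; limma, adjusted p = 8.49e-11), a fold taken against a dim vector signal. L1601P+ΔP differed from vector by 0.33 and was not called (limma, adjusted p = 0.126), and the difference between NICD and L1601P+ΔP was 3.43 (limma, adjusted p = 4.87e-10). The second ADAMTS15 probe set differed by 0.24 between NICD and vector and was not called (limma, adjusted p = 0.149 over all probe sets). The size of the ADAMTS15 change therefore rests on 1 probe set. That probe set had the higher mean over the 12 arrays only through its NICD arrays. In vector cells it averaged 4.89 and the second 4.998.

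ADAMTS1, which cuts versican and aggrecan, had log2 signals of 7.48, 7.59 and 7.69 in NICD cells. It had 5.60, 5.15 and 5.20 in L1601P+ΔP cells, 4.83, 4.84 and 4.70 in full-length Notch1 cells, and 4.87, 4.65 and 4.64 in vector cells. NICD arrays were highest, L1601P+ΔP arrays lay between, and full-length Notch1 and vector overlapped. ADAMTS1 rose 7.30-fold with NICD (2.87 ± 0.11; limma, adjusted p = 7.6e-10) and 1.51-fold with L1601P+ΔP (0.59 ± 0.11; limma, adjusted p = 0.00784), again against a dim vector signal. NICD exceeded L1601P+ΔP by 2.27 (limma, adjusted p = 1.55e-08). The second ADAMTS1 probe set was higher by 1.003 with NICD (4.64 ± 0.58 and 3.64 ± 0.08 in vector cells, SD, n = 3 each; limma, adjusted p = 0.0039) and by 0.18 with L1601P+ΔP, which was not called (limma, adjusted p = 0.704). With the mean of both probe sets, the L1601P+ΔP difference of ADAMTS1 was 0.39 and was no longer called (limma, adjusted p = 0.0544).

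ADAMTS9, another versican-cutting protease, had log2 signals of 5.90, 6.10 and 5.92 in NICD cells, against 5.11, 5.44 and 5.29 in vector cells. The groups did not overlap, and NICD was 1.62-fold higher (0.69 ± 0.08; limma, adjusted p = 2.82e-05). L1601P+ΔP averaged 5.48 and full-length Notch1 5.37, and neither was called against vector. Of its 4 probe sets, 3 were called higher with NICD, and all 4 lay between 0.23 and 1.09. The antisense genes ADAMTS9-AS1 and ADAMTS9-AS2 differed by -0.10 and -0.03 and were not called.

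The other 4 proteoglycanases, ADAMTS4, ADAMTS5, ADAMTS8 and ADAMTS20, were not called with NICD. ADAMTS5, a main aggrecanase of cartilage, averaged 3.49 in NICD cells and 3.29 in vector cells (0.20; limma, adjusted p = 0.215). ADAMTS20 averaged 3.34 and 3.12 in the same groups, without overlap between their arrays (0.21; limma, adjusted p = 0.0556). None of the 3 procollagen N-proteinases (ADAMTS2, ADAMTS3 and ADAMTS14), which trim fibrillar collagens, was called, with 95% bounds between -0.21 and 0.26. None of the 8 other ADAMTS was called either, with bounds between -0.42 and 0.43.

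Among the 5 ADAMTS-like proteins, which lack the protease domain, only ADAMTSL4 was called with NICD. ADAMTSL4, which binds fibrillin-1, had log2 signals of 7.15, 7.21 and 7.30 in NICD cells, against 6.56, 6.54 and 6.67 in vector cells. The arrays did not overlap, and the difference was 0.63 ± 0.08 (limma, adjusted p = 4.9e-05). L1601P+ΔP differed from vector by 0.05 and full-length Notch1 by -0.09, neither called. The second ADAMTSL4 probe set differed by -0.13 with NICD and was not called (limma, adjusted p = 0.537 over all probe sets).

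**Figure D3:**
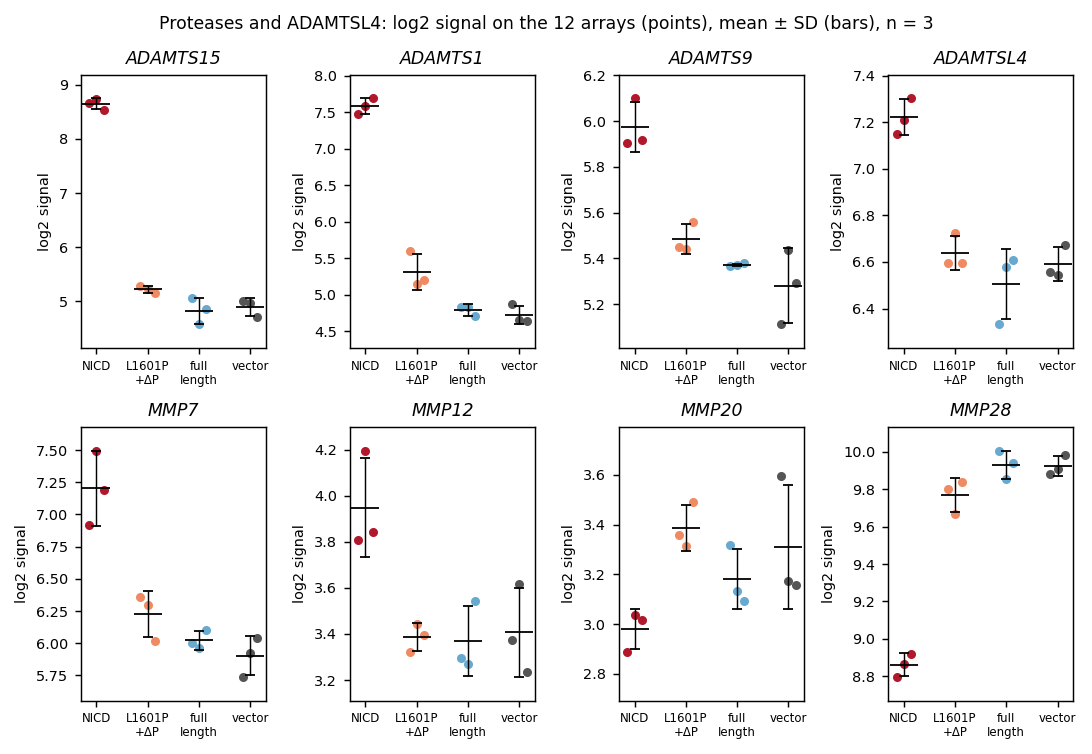
Log2 signals of the proteases and of ADAMTSL4 named in the text are plotted for each of the 12 arrays by group, with points for arrays and bars for the mean ± SD (n = 3). ADAMTS15, ADAMTS1 and MMP7 are highest in NICD cells and MMP28 is lowest there, with group means of 8.65, 7.59, 7.20 and 8.86.

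Of the 22 MMPs, 2 rose and 2 fell with NICD, 18.2% of them, beside 27.6% of all genes. MMP7, or matrilysin, is a small MMP made by gland epithelium and known to cut E-cadherin and other surface proteins. Its log2 signals were 6.92, 7.50 and 7.19 in NICD cells, 6.36, 6.30 and 6.02 in L1601P+ΔP cells, 5.999, 5.96 and 6.10 in full-length Notch1 cells, and 5.74, 5.93 and 6.04 in vector cells. The NICD arrays stood above all others, and the remaining 3 groups overlapped in part. MMP7 was 2.46-fold higher with NICD than with vector (1.30 ± 0.13; limma, adjusted p = 9.06e-06). L1601P+ΔP differed by 0.32 and was not called (limma, adjusted p = 0.19). MMP7 has 1 probe set on the array.

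MMP28, or epilysin, an MMP of epithelia and keratinocytes, had log2 signals of 8.80, 8.86 and 8.92 in NICD cells. It had 9.80, 9.67 and 9.84 in L1601P+ΔP cells, 10.003, 9.85 and 9.94 in full-length Notch1 cells, and 9.88, 9.91 and 9.98 in vector cells. NICD arrays were lowest with a wide gap, and L1601P+ΔP arrays lay just under vector without overlap. MMP28 fell 2.09-fold with NICD (-1.06 ± 0.06; limma, adjusted p = 4.8e-08), and L1601P+ΔP differed by -0.15 and was not called (limma, adjusted p = 0.187). All 5 MMP28 probe sets were called lower with NICD, between -1.15 and -0.70.

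MMP12, the macrophage elastase, had dim log2 signals of 3.81, 4.20 and 3.84 in NICD cells, against 3.37, 3.61 and 3.23 in vector cells. The groups did not overlap, and the difference was 0.54 ± 0.12 (limma, adjusted p = 0.00389). CD14, a marker of the macrophage lineage, was higher in the same cells, and its part in the MMP12 result was not tested. Of the 4 blood cell markers tested, CD14 was the only 1 called. MMP20, or enamelysin, the MMP of tooth enamel, was as dim, at 2.89, 3.04 and 3.02 in NICD cells, against 3.60, 3.17 and 3.16 in vector cells. Its difference of -0.33 ± 0.11 was called (limma, adjusted p = 0.0406) but rested on single arrays. Without vector replicate 1 it was -0.18 (limma, adjusted p = 0.144), and without NICD replicates 1, 2 or 3 the adjusted p was 0.134, 0.0586 and 0.0721. The MMP20 call was also lost under cyclic loess (limma, adjusted p = 0.0501), with adjustment over all probe sets (0.05755) and with only the 6 arrays compared (0.0845).

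The MMPs best known for cutting collagen were not called with NICD. The 3 collagenases (MMP1, MMP8 and MMP13) had 95% bounds between -0.26 and 0.38 on the log2 scale, and the 2 gelatinases (MMP2 and MMP9) between -0.27 and 0.43. For the 3 stromelysins (MMP3, MMP10 and MMP11) the bounds were -0.46 and 0.25, and for the 6 membrane-type MMPs -0.57 and 0.37. Changes of 2-fold lay outside all of these bounds, and the dim members' signals are compressed. MMP9, a gelatinase, averaged 5.67 in NICD cells and 5.48 in vector cells (0.19; limma, adjusted p = 0.253). MMP14, the membrane protease that activates the MMP2 precursor, averaged 7.79 in NICD cells and 8.06 in vector cells (-0.27 ± 0.14; limma, adjusted p = 0.175). One of the 4 MMP14 probe sets was called lower, by 0.70 ± 0.12 on the log2 scale (limma, adjusted p = 0.000917 over all probe sets), and the others lay between -0.27 and -0.11.

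**Figure D4:**
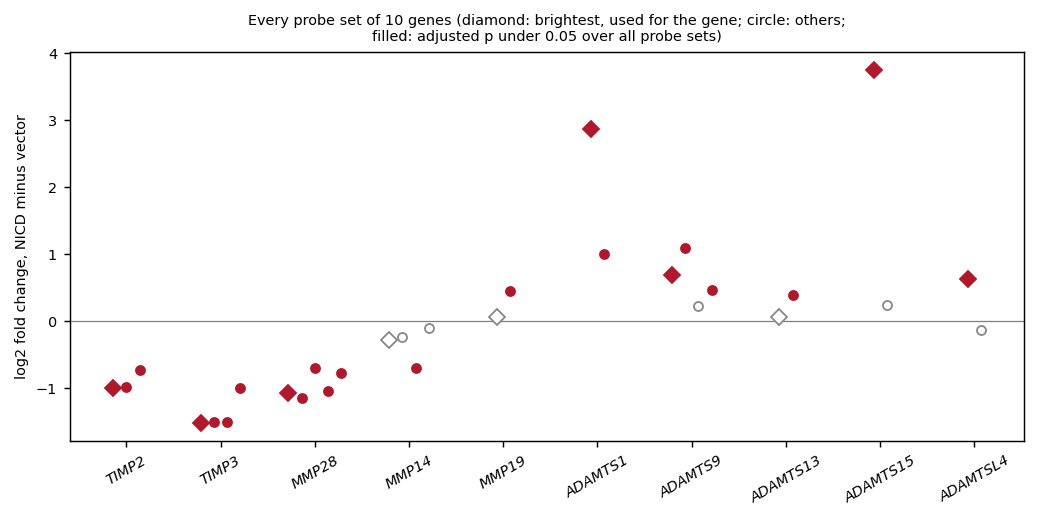
The log2 fold change of NICD minus vector is plotted for every probe set of 10 genes, with a diamond for the brightest and circles for the others, filled where p was under 0.05 after adjustment for all probe sets. All probe sets of TIMP2, TIMP3 and MMP28 lie under 0, while the 2 probe sets of ADAMTS15 lie at 3.76 and 0.24.

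A run of 9 MMP genes on chromosome 11 had no other protein-coding gene between them in RefSeq. In that order, the log2 fold changes of NICD against vector were 1.30 for MMP7, -0.33 for MMP20, -0.02 for MMP27, -0.01 for MMP8, -0.11 for MMP10, 0.14 for MMP1, -0.03 for MMP3, 0.54 for MMP12 and 0.10 for MMP13. MMP7 and MMP20, next to each other at 1 end of the run, were called in opposite directions, and MMP12 was called between MMP3 and MMP13, which were not. ADAMTS15 (3.76) lies next to ADAMTS8 (0.03; limma, adjusted p = 0.898) on chromosome 11, and ADAMTS1 (2.87) next to ADAMTS5 (0.20) on chromosome 21. In both pairs 1 gene was called and its neighbour was not, and the difference between neighbours was not tested. ADAMTS5 was dim, at a mean log2 signal of 3.35 over the 12 arrays.

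**Figure D5:**
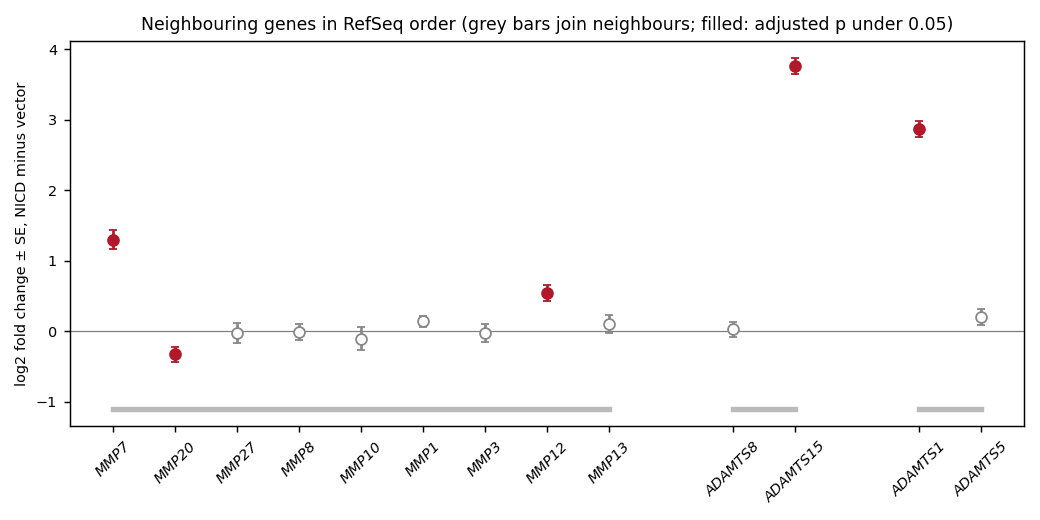
Log2 fold changes ± SE of NICD minus vector are plotted for neighbouring genes in RefSeq order, with grey bars joining neighbours and filled points where the adjusted p was under 0.05. MMP7 at 1.30, ADAMTS15 at 3.76 and ADAMTS1 at 2.87 stand above the genes next to them.

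The upstream windows of MMP7, MMP20 and MMP10 are shown because these are the genes of the run, among those with a promoter entry, whose windows hold AP-1 letters, and with NICD they were called higher, called lower and not called, in that order. They lie on the minus strand at chr11:102530748-102530997 for MMP7, chr11:102625333-102625582 for MMP20 and chr11:102780629-102780878 for MMP10 (GRCh38.p14, RefSeq), 250 bases each, 5′ to 3′ along the gene, with capitals for an AP-1 match (TGANTCA) and for TATAAA.
MMP7: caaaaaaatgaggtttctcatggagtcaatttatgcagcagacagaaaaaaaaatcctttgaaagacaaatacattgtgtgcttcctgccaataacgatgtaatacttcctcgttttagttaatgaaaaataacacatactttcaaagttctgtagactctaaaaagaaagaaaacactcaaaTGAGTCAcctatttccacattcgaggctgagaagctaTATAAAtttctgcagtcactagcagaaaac
MMP20: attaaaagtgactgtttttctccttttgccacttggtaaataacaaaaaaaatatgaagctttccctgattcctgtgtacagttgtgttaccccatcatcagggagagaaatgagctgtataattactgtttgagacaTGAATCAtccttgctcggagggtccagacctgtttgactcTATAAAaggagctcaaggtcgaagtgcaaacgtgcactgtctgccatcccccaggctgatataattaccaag
MMP10: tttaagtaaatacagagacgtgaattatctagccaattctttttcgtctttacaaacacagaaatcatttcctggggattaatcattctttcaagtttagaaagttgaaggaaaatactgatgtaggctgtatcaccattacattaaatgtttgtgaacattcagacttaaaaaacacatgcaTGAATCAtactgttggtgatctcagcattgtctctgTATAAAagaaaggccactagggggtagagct
The AP-1 match lay 67 to 61 bases before the gene start in MMP7 and MMP10, and 112 to 106 bases before it in MMP20. TATAAA lay 30 to 25 bases before the start in MMP7, 72 to 67 in MMP20 and 31 to 26 in MMP10. AP-1 letters were found in 4 of the 30 members with an entry (ADAMTS12, MMP10, MMP20 and MMP7), against 6.57% of all windows, and TATAAA in 8 of 30, against 10.7%, both counted on either strand. The log2 signal of MMP10, a stromelysin, averaged 3.72 with NICD and 3.82 with vector, so it was dim in both. MMP20 was dim as well, and its call did not hold under every alternative.

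L1601P+ΔP cells differed from vector cells in 4 of the 49 genes, with TIMP1 and ADAMTS1 higher and TIMP2 and TIMP3 lower. These are 8.16% of the genes, beside 5.12% of all genes called (2.16% higher and 2.95% lower). The arrays did not overlap for 11 of the 49, 22.4%, against 28.5% of all genes, and the median log2 fold change was 0.04, against -0.01 over all genes. No MMP was called. No gene of the family differed by 2-fold, where 48 of all 19775 genes were called at least 2-fold higher and 2 lower. The NICD and L1601P+ΔP comparisons share the vector arrays, so their likeness in these 4 genes is given as values only.

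Full-length Notch1 cells differed from vector cells in none of the 49 genes by limma, beside 0.0354% of all genes called (0.0303% higher and 0.00506% lower). Before adjustment 4 of the 49 had a p under 0.05, beside 1053 of all 19775 genes. Limma with trend and robust settings also called 0 of the 49. The arrays did not overlap for 6 of the 49 genes, 12.2%, against 11% of all genes, and the 95% bounds over all 49 ran from -0.77 to 0.55. The largest differences were -0.42 for MMP10 (limma, adjusted p = 0.883) and 0.30 for MMP26 (limma, adjusted p = 0.814), the second matrilysin.

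NICD cells set directly against L1601P+ΔP cells had 7 genes higher and 4 lower, 22.4% of the 49, beside 19.8% of all genes called (8.73% higher and 11.1% lower). ADAMTS1, ADAMTS9, ADAMTS15, ADAMTSL4, MMP7, MMP12 and TIMP1 were higher, and MMP20, MMP28, TIMP2 and TIMP3 were lower. The arrays did not overlap for 15 of the 49, 30.6%, against 34.2% of all genes. MMP28 was lower by 0.91 on the log2 scale with NICD than with L1601P+ΔP (8.86 ± 0.06 and 9.77 ± 0.09, SD, n = 3 each; limma, adjusted p = 3.95e-07). MMP7 was higher by 0.97 (limma, adjusted p = 0.000181), ADAMTSL4 by 0.58 (limma, adjusted p = 0.000154) and ADAMTS9 by 0.49 (limma, adjusted p = 0.000804). The dim gene MMP20 differed by -0.41 (limma, adjusted p = 0.0191), and this call was lost without L1601P+ΔP replicate 3 (adjusted p = 0.0727) or NICD replicate 1 (adjusted p = 0.0717).

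NICD cells differed from full-length Notch1 cells in 8 genes higher and 3 lower, beside 27% of all genes called (10.1% higher and 17% lower). The arrays did not overlap for 16 of the 49, 32.7%, against 39.5% of all genes. MMP16, a membrane-type MMP, was called in this comparison and in no other of the 6 (0.21 against vector; limma, adjusted p = 0.0557), at 4.69 ± 0.08 with NICD and 4.42 ± 0.14 with full-length Notch1 (0.27 ± 0.07; limma, adjusted p = 0.0171). Without full-length Notch1 replicate 3 its adjusted p was 0.0783 and without NICD replicate 3 it was 0.065, so the call was lost without either array. The MMP16 call was also lost with the mean of its probe sets (limma, adjusted p = 0.0646) and with only the 6 arrays compared (0.0509). MMP20, called against vector, differed here by -0.20 and was not called (limma, adjusted p = 0.212).

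L1601P+ΔP cells differed from full-length Notch1 cells in TIMP1 and ADAMTS1, which were higher, and TIMP2 and TIMP3, which were lower, beside 3.72% of all genes called (1.86% higher and 1.86% lower). The arrays did not overlap for 10 of the 49, 20.4%, against 27.2% of all genes. TIMP1 was higher by 0.66 (limma, adjusted p = 7.87e-06) and TIMP3 differed by -0.58 (limma, adjusted p = 0.000139). TIMP2 differed by -0.33 (limma, adjusted p = 0.012) and ADAMTS1 by 0.52 (limma, adjusted p = 0.0209). Without full-length Notch1 replicate 3 neither was called (adjusted p = 0.0661 for TIMP2 and 0.096 for ADAMTS1), and without full-length Notch1 replicate 2 ADAMTS1 was not (adjusted p = 0.0515).

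Other genes that act on these proteases or serve as their substrates moved in both directions with NICD. The median log2 fold change with NICD was -0.02 for ADAM proteases, 0.13 for astacins, -0.08 for MMP activators and inhibitors, 0.15 for plasminogen activation, 0.07 for matrix substrates and 0.07 for AP-1 factors, beside -0.02 for all genes. Of 18 ADAM proteases tested, of 20 listed, 1 rose and 4 fell, 27.8% called beside 27.6% of all genes (9.54% higher and 18.1% lower), with ADAM19 higher by 0.83 (limma, adjusted p = 0.000191) and ADAM15 differing by -0.55. Of 5 astacin proteases tested, of 6 listed, 1 rose (20%), BMP1, the procollagen C-proteinase (0.45; limma, adjusted p = 0.00131). In L1601P+ΔP cells no gene of either list was called by limma. Before adjustment 1 of each list had a p under 0.05, beside 4132 of all 19775 genes.

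Of 14 MMP activators and inhibitors, 3 rose and 4 fell with NICD, 50% called beside 27.6% of all genes. RECK, a membrane-anchored MMP inhibitor, was higher by 0.32 (limma, adjusted p = 0.00742), and so was FURIN, a convertase that activates MMP14 (0.32; limma, adjusted p = 0.00958). PCSK5, another convertase, differed by -0.79 (limma, adjusted p = 0.00268), and BSG, known as an inducer of MMPs, by -0.58 (limma, adjusted p = 0.00123). With L1601P+ΔP 1 gene of this list was called (7.14%, beside 5.12% of all genes), SPOCK1, a testican proteoglycan (-0.42; limma, adjusted p = 0.00805). Of 10 plasminogen activation genes tested, of 12 listed, 4 rose and 1 fell with NICD (50%, beside 27.6% of all genes), and 2 fell with L1601P+ΔP (20%, beside 5.12%). With NICD the log2 fold changes of the 10 ran from -0.43 to 0.65. PLAT, the tissue plasminogen activator, differed by -0.43 with NICD and -0.28 with L1601P+ΔP. SERPINE2, an inhibitor of that activator, differed by 0.25 with NICD and by -0.36 with L1601P+ΔP (limma, adjusted p = 0.00237), called in opposite directions.

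Of 18 matrix substrates, 3 rose and 4 fell with NICD (38.9%, beside 27.6% of all genes), and 1 rose with L1601P+ΔP (5.56%, beside 5.12%). FBN1, the fibrillin-1 that ADAMTSL4 binds, was higher by 3.40 with NICD and by 0.87 with L1601P+ΔP. VCAN, or versican, the substrate of ADAMTS1, ADAMTS9 and ADAMTS15, differed by -0.34 with NICD. Of 8 AP-1 factors, whose motif many MMP promoters hold, 1 rose and 2 fell with NICD (37.5%, beside 27.6% of all genes), with FOS at 0.23, FOSL1 at -0.45 and JUND at -0.70. With full-length Notch1 no gene of these 6 lists was called by limma. At an unadjusted p under 0.05 there was 1 ADAM gene and 2 plasminogen activation genes in that comparison, beside 1053 of all 19775 genes.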

How the data were processed

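Per the submitters' processing notes, RMA and limma were used, whose versions the sources used here do not give. The authors deposited log2 signals for 54675 probe sets on 12 arrays, and the values run from 2.27 to 15.01. RMA includes quantile normalisation, so a shift of most genes one way cannot be seen. No scanner files were used here. Depth has no counterpart on arrays, and their number limits the precision.

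Probe sets were named from the platform's annotation. Of the probe sets, 41091 had 1 symbol, 1801 had several and 62 were controls, and 54 of those with 1 symbol had no RefSeq match. The 49 genes had 104 probe sets, with 20 genes on 1 and 29 on several. No filter on low values was set, so all 49 were tested. A probe set shared by MMP23A and MMP23B was not counted as a gene.

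limma 3.58.1 in R 4.3.3 was fitted to the log2 values with group means only, all 12 arrays in 1 fit (8 residual and 4.09 prior degrees of freedom). The 6 comparisons were each adjusted by Benjamini-Hochberg over 19775 genes and tested two-sided. Calls of single probe sets were adjusted over 54613 probe sets. Errors are the SD over 3 arrays or the SE of the fit. The fit was tested on simulated data. The alternatives were cyclic loess, a filter at a mean log2 signal of 5, the mean of a gene's probe sets, adjustment over all probe sets, only the 6 arrays compared, trend and robust moderation, the replicate number as a block, and leaving out each array. Motifs were searched on both strands of the 250 bases before each RefSeq gene start. Figures were drawn with matplotlib 3.10.9.

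Any of the 49 genes could be named, and from each other list up to 4 called genes per direction with the largest change in a comparison. The members and lists were chosen with earlier results of these data known.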

Additional observations from a re-analysis of the deposited data

Results flagged for a closer look

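Probe sets other than the brightest of their gene lie outside the comparisons of the report, and 4 genes had such a probe set called between NICD and vector where the gene itself was not called. One ADAMTS13 probe set was higher by 0.39 (6.05 ± 0.07 with NICD and 5.66 ± 0.11 with vector, SD, n = 3 each; limma, adjusted p = 0.00691 over all probe sets), while the brightest differed by 0.07. ADAMTS13 is the protease that cuts von Willebrand factor. One MMP19 probe set was higher by 0.45 (5.62 ± 0.19 with NICD and 5.17 ± 0.20 with vector; limma, adjusted p = 0.02), while the brightest differed by 0.07. One MMP14 probe set differed by -0.70 (6.996 ± 0.26 with NICD and 7.70 ± 0.19 with vector; limma, adjusted p = 0.000917), while the brightest differed by -0.27. One ADAMTS8 probe set differed by -0.31 (4.65 ± 0.07 with NICD and 4.96 ± 0.18 with vector; limma, adjusted p = 0.0389), while the brightest differed by 0.03. Groups of 3 arrays were not tested for outlying arrays.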

How the results depend on the processing

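The filter at a mean log2 signal of 5 left out the dim genes, among them MMP12, MMP16 and MMP20. Of 41 calls over the 49 genes and 6 comparisons, 34 held under every alternative in which the gene was tested and 7 were lost under at least 1. The 7 were MMP20 against vector and against L1601P+ΔP with NICD, TIMP1 between NICD and L1601P+ΔP, MMP16 between NICD and full-length Notch1, ADAMTS1 with L1601P+ΔP against vector and against full-length Notch1, and TIMP2 between L1601P+ΔP and full-length Notch1. With the mean of all probe sets of a gene, MMP2 changed sign and was called, at 0.19 between L1601P+ΔP and vector (limma, adjusted p = 0.027; -0.07 with the brightest probe set) and at -0.19 between NICD and L1601P+ΔP (limma, adjusted p = 0.00697; 0.03 with the brightest). The cause was not tested. With that mean MMP14 (-0.33), MMP19 (0.26) and ADAMTS13 (0.23) were also called between NICD and vector, and ADAMTS9 (0.29) between L1601P+ΔP and vector. Leaving out 1 array at a time gave 10 to 12 called genes between NICD and vector, 4 between L1601P+ΔP and vector, 0 between full-length Notch1 and vector, 10 to 11 between NICD and L1601P+ΔP, and 10 to 12 between NICD and full-length Notch1. Between L1601P+ΔP and full-length Notch1 it gave 2 to 5, with 1 to 3 higher and 1 to 2 lower, and the count of 2 came without full-length Notch1 replicate 3. Under cyclic loess the share of called genes that were higher was 51.6% over all genes between NICD and vector, against 34.6% with the values as deposited, 58.4% against 42.3% between L1601P+ΔP and vector, 52.9% against 37.3% between NICD and full-length Notch1, and 62.5% against 50.1% between L1601P+ΔP and full-length Notch1. The median of all genes moved by under 0.1 on the log2 scale, and no called member changed direction. The same-numbered replicates did not pair: over 18 pairs the correlation of their deviations ran from -0.11 to 0.16, and 2 arrays correlated best with their own number. With the replicate block the counts were 12 between NICD and vector, 4 between L1601P+ΔP and vector, 0 between full-length Notch1 and vector, 12 between NICD and L1601P+ΔP, 13 between NICD and full-length Notch1 and 4 between L1601P+ΔP and full-length Notch1.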
